A study of Mus musculus with 3 samples.

Results

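Cpt1a, Acadm, Acot12, Angptl4, Ppara and Plin2 are genes of fatty acid oxidation, of its control by a nuclear receptor and of the lipid stores that feed it. They were taken by symbol, 6 of the 31053 genes in the count tables, and all 6 passed the filter on low counts in both fits used here. The study profiled RNA of single live epithelial and intraepithelial immune cells from the small intestine of wild-type C57BL/6N mice. Cells of 3 male mice, 12 weeks old, were pooled and sorted by exclusion of propidium iodide. Each segment gave 1 library, no mouse was treated, and no segment has a second library. Sets of 3 values below stand in the order duodenum, jejunum, ileum.

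Long-chain fatty acids are activated to acyl-CoA and enter the mitochondrion through the carnitine shuttle, whose committed step is CPT1. Beta-oxidation shortens them to acetyl-CoA, from which ketone bodies can be made. Fatty acids also activate the nuclear receptor PPARα, which induces many genes of these pathways. Enterocytes arise from stem cells in the crypts and move up the villus to its tip, where they are shed.

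Ppara encodes PPARα. Cpt1a encodes the liver form of carnitine palmitoyltransferase 1, and Acadm the medium-chain acyl-CoA dehydrogenase of beta-oxidation. Acot12 encodes a cytosolic thioesterase that splits acetyl-CoA into acetate and CoA. Angptl4 encodes a secreted inhibitor of lipoprotein lipase, and Plin2 a protein that coats lipid droplets. In GENCODE M21 on GRCm38, Cpt1a lies on the plus strand of chromosome 19 from 3322334 to 3385733, Ppara on the plus strand of chromosome 15 from 85734983 to 85802819, and Acot12 on the plus strand of chromosome 13 from 91741512 to 91786148. Acadm lies on the minus strand of chromosome 3 from 153922357 to 153944632, Angptl4 on the minus strand of chromosome 17 from 33773750 to 33781830, and Plin2 on the minus strand of chromosome 4 from 86648386 to 86670060. None shares its strand with an overlapping gene, and Acot12 overlaps the antisense gene 4833422C13Rik.

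The promoter of Acot12 is shown because it held the closest match among the members to the element that PPARα binds together with its partner RXR, a direct repeat of a half-site with 1 base between the copies. The motif searched was AGGTCANAGGTCA, on both strands. In the RefSeq window of 300 bases around the start of Acot12 (GRCm38.p6, chr13:91741271-91741570, plus strand), the best match had 1 mismatch, read on the opposite strand, and began 110 bases before the start. Plin2 (chr4:86670010-86670309, minus strand) held the next closest, with 2 mismatches, on the strand opposite to the gene and 225 bases before the start. Capitals mark the stretch of the best match, mismatches included, and each sequence runs along its gene's own strand.
Acot12: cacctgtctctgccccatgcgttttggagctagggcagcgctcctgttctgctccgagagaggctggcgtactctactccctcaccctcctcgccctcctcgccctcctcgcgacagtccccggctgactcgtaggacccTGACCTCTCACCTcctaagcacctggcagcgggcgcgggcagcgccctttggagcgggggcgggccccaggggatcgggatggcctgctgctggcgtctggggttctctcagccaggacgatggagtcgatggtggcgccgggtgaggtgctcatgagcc
Plin2: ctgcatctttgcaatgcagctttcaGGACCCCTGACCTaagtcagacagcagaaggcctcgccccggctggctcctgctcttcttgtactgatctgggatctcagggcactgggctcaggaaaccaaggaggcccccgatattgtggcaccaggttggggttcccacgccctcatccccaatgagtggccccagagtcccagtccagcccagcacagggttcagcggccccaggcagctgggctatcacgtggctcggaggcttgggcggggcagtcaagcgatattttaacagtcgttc
A match with at most 1 mismatch occurred in 0.554% of the 32851 windows in the table, one with at most 2 in 3.86% and one with at most 3 in 24.6%. The windows of Acadm, Cpt1a and Ppara had best matches with 3, 4 and 4 mismatches. The half-site AGGTCA, counted on either strand and also inside the longer motif, occurred 1 time each in the windows of Acadm, Acot12, Cpt1a and Plin2, 0 times in that of Ppara, and in 16.3% of all windows. No window was used for Angptl4. These are matches of letters and not measured sites.

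After the cell filters 4255, 4360 and 8071 cells remained, with 57079945, 58186946 and 66148396 UMIs (unique molecular identifiers, each standing for 1 captured RNA molecule). Clusters named from markers gave 10232 enterocytes, 1119 early enterocytes and 226 crypt cells, of which 58 to 92 came from each library. The 14 stem cell and proliferation markers summed to between 51.8 and 64.9 UMIs per 10000 in crypt cells and to at most 1.00 in enterocytes. The 15 enterocyte markers summed to between 448 and 1003 in enterocytes and to at most 46.9 in crypt cells. The 11 T cell markers summed to 0.00551, 10.4 and 15.8 per 10000 in crypt cells, with 10 of them at 0 in the duodenum, against 228 to 310 in T cells, and their part in the results was not tested. Median mitochondrial shares of enterocytes were 28.9%, 28.9% and 11.9%. Each pair of libraries shared 20 to 28 barcodes, of which 4 to 12 passed the filters in both.

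Levels are UMIs per 10000 UMIs after summing a group's cells within a library. Their 95% intervals are exact Poisson ones and reflect counting alone. Folds and their standard errors come from edgeR's quasi-likelihood test on these sums, with library as a blocking term, and a gene was called at an adjusted p under 0.05 (Benjamini-Hochberg, over all genes). The libraries are segments from 1 pool of mice, so the p-values measure how the change within a library varies between segments. They hold no spread between animals. The fits scale each sum with TMM factors, which moved the median log2 fold change over all genes from -0.73 to 0.03 for enterocytes against crypt cells, from -0.26 to 0.06 for enterocytes against early enterocytes, and from -0.54 to -0.09 for the upper against the lower villus zone. A fitted fold therefore lies above the ratio of 2 levels, and each value below is named as a level or as a fitted change.

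Acot12, Angptl4 and Acadm were higher in enterocytes than in crypt cells by the test, and Cpt1a, Ppara and Plin2 were not called. Of the 6 members 3 were thus called higher and 0 lower, in a comparison where 36.6% of 11670 genes were called higher and 35.6% lower. Without TMM the split over all genes moved from 4268 higher and 4152 lower to 2517 and 5845, and that of the members to 2 higher and 3 lower.

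**Figure D1:**
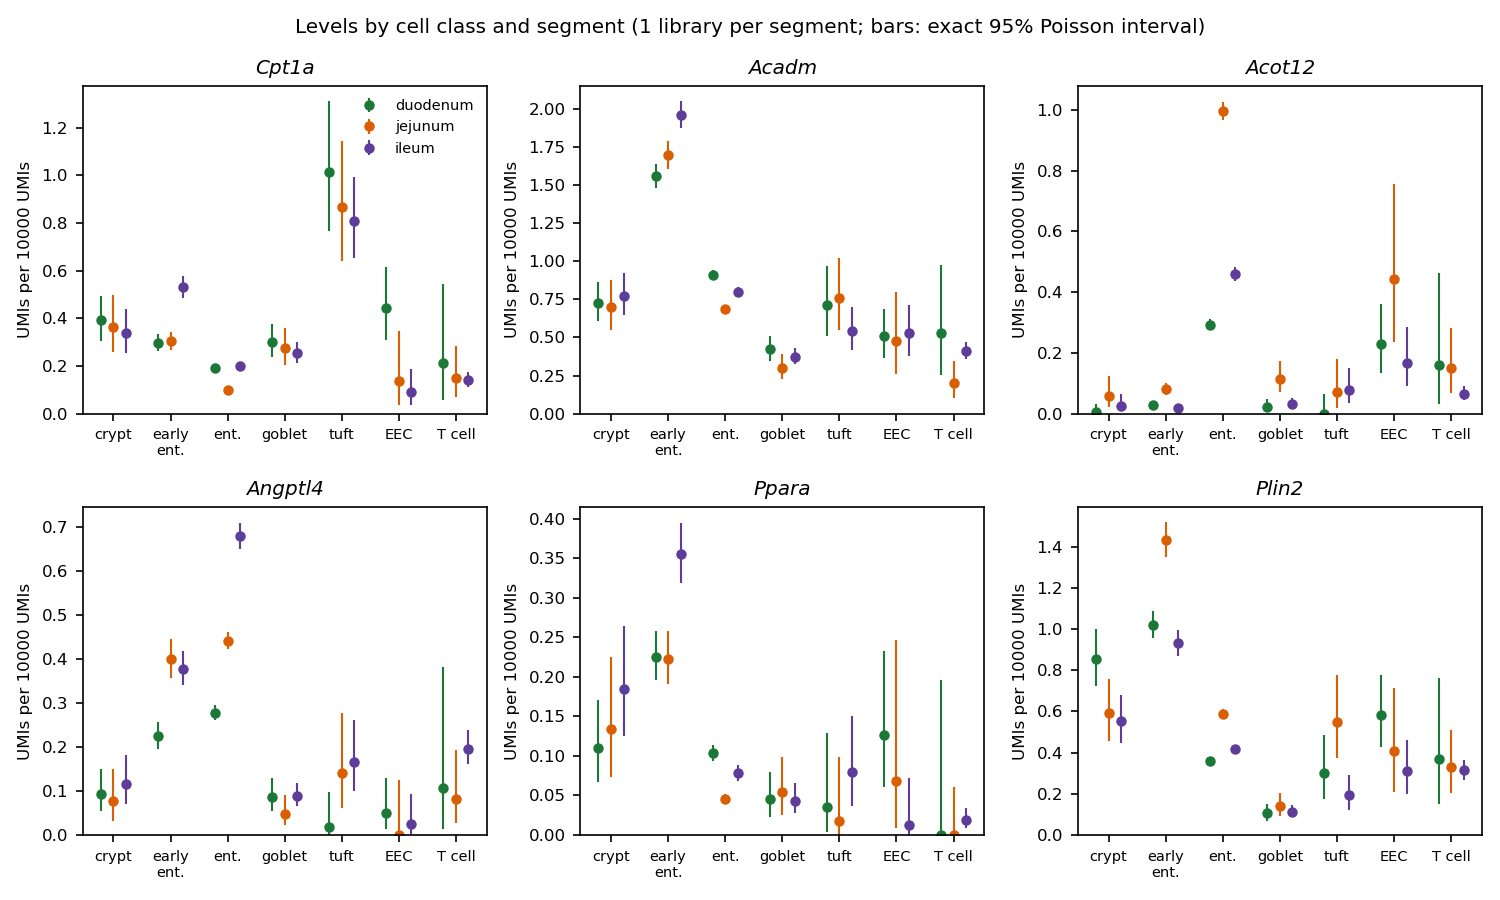
Level of each member in UMIs per 10000 UMIs (vertical axes) by cell class, with 1 point per library and exact 95% Poisson intervals as bars; ent. stands for enterocytes and EEC for enteroendocrine cells. Acadm, Ppara and Plin2 are highest in early enterocytes in every library, Acot12 and Angptl4 are highest in enterocytes, and Cpt1a stands at 0.809 to 1.01 in tuft cells.

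The receptor gene Ppara was a low transcript and highest in early enterocytes. Crypt cells held levels of 0.110, 0.134 and 0.185 from 20, 14 and 30 UMIs, early enterocytes 0.225, 0.223 and 0.355, and enterocytes 0.103, 0.0455 and 0.0778. Every early enterocyte level lay above every level of the other 2 classes. The fitted log2 fold change for enterocytes against early enterocytes was -1.52 ± 0.23 (SE, n = 3 libraries; edgeR, adjusted p = 0.000722). Against crypt cells it was -0.16 ± 0.28 (edgeR, adjusted p = 0.615), and without TMM Ppara was called lower at -0.91 (adjusted p = 0.0284). T cells held 0, 0 and 10 Ppara UMIs.

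Cpt1a, the entry step of mitochondrial oxidation, did not rise toward the enterocyte. Its level was 0.391, 0.363 and 0.339 in crypt cells, 0.296, 0.303 and 0.532 in early enterocytes, and 0.192, 0.10 and 0.198 in enterocytes. Enterocyte levels lay below all crypt levels, yet the fitted log2 fold change was -0.44 ± 0.23 and not called (edgeR, adjusted p = 0.115). It was called lower without TMM, at -1.20 (adjusted p = 0.0027), and with the ileum left out, at -0.74 (adjusted p = 0.0239). Against early enterocytes the fitted change was -0.90 ± 0.21 (edgeR, adjusted p = 0.00721), and with the jejunum left out it was -0.76 (adjusted p = 0.0956). T cells of the duodenum and the jejunum held at least the Cpt1a level of the enterocytes. In the ileum 0.0579 of the enterocyte level remained after the T cell level was subtracted.

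Tuft cells, the chemosensory cells of the epithelium, had the highest Cpt1a levels of the 7 classes plotted. They held 1.01 (0.767 to 1.31), 0.867 (0.641 to 1.15) and 0.809 (0.652 to 0.992) per 10000. These intervals lay above those of each other plotted class in the same library. No test of tuft cells was made.

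Acadm, which acts inside the beta-oxidation cycle, also peaked in early enterocytes. Its level was 0.728, 0.698 and 0.776 in crypt cells, 1.56, 1.70 and 1.97 in early enterocytes, and 0.914, 0.686 and 0.799 in enterocytes. Levels of crypt cells and enterocytes overlapped, and the call between them rests on the TMM scaling. The fitted log2 fold change was 0.88 ± 0.15 (edgeR, adjusted p = 0.000566), and without TMM it was 0.12 (adjusted p = 0.525). Against early enterocytes enterocytes were lower, at -0.80 ± 0.14 (edgeR, adjusted p = 0.0016).

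Acot12 was the member with the largest fitted change. Crypt cells held 1, 6 and 4 UMIs, or 0.00551, 0.0573 and 0.0246 per 10000, and enterocytes 0.293, 0.997 and 0.459. T cells, which should lack the transcript, stood at 0.159, 0.149 and 0.0637 in 35, 109 and 1084 cells, above the crypt levels of the same libraries. T cells also held more RNA of the enterocyte markers than crypt cells, at 132, 56.4 and 124 against 45.6, 46.9 and 39.7 per 10000. Their level is therefore only a loose guide to the background in crypt cells, and a crypt level was not told apart from background. The ratio of the levels of enterocytes and crypt cells was 53.2 on 1 crypt UMI in the duodenum (95% counting interval 9.52 to 2102), 17.4 in the jejunum (7.98 to 47.4) and 18.6 in the ileum (7.26 to 68.5). The fitted log2 fold change was 5.23 ± 0.38 (edgeR, adjusted p = 3.61e-06). Early enterocytes, with 0.0268, 0.0797 and 0.0165 per 10000, also lay below the T cells, and enterocytes exceeded them by a fitted 4.23 ± 0.29 (edgeR, adjusted p = 2.54e-05).

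Single cells held Acot12 most often in enterocytes at matched depth as well, while the order of the other classes differed from that of their levels. After each cell was thinned to 800 UMIs, 4.79% of enterocytes, 0.536% of early enterocytes, 0.885% of crypt cells and 0.244% of T cells held an Acot12 UMI. The last 3 shares rest on 6, 2 and 3 cells. Before thinning these were 3757 of 10232, 79 of 1119, 10 of 226 and 30 of 1228 cells. The median depths were 10059 UMIs in enterocytes and 4271 in T cells.

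Among crypt cells, early enterocytes and enterocytes, Angptl4, the lipase inhibitor, was highest in enterocytes. Its level was 0.0937, 0.0764 and 0.117 in crypt cells, 0.225, 0.400 and 0.378 in early enterocytes, and 0.279, 0.442 and 0.680 in enterocytes. Crypt cells and enterocytes did not overlap, while T cells stood at 0.106, 0.0827 and 0.197, near or above the crypt levels. The fitted log2 fold change was 2.94 ± 0.28 against crypt cells (edgeR, adjusted p = 1.6e-05) and 0.76 ± 0.22 against early enterocytes (adjusted p = 0.017). The latter was not called without the jejunum (0.89, adjusted p = 0.0633), without the ileum (0.49, adjusted p = 0.126) or without TMM (0.44, adjusted p = 0.109), nor in 3 further settings, with at most 20% mitochondrial UMIs, with marker sums and without the library block, where the adjusted p ranged from 0.0899 to 0.123.

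Plin2, the droplet coat, was highest in early enterocytes. Its level was 0.854, 0.592 and 0.554 in crypt cells, 1.02, 1.43 and 0.931 in early enterocytes, and 0.360, 0.588 and 0.415 in enterocytes. The fitted log2 fold change of enterocytes against crypt cells was 0.17 ± 0.26 (edgeR, adjusted p = 0.577). It turned to -0.59 without TMM (adjusted p = 0.0401) and rose to 0.63 without the duodenum (adjusted p = 0.0397). Against early enterocytes the fitted change was -0.97 ± 0.25 (edgeR, adjusted p = 0.0106). T cells held 0.371, 0.331 and 0.315 per 10000, near the enterocyte levels.

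Enterocytes against early enterocytes thus called all 6 members, 2 higher and 4 lower, where 25.8% of all genes were called higher and 24.1% lower. Without TMM the split over all genes went from 3009 higher and 2808 lower to 1797 and 3763.

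Enterocytes and early enterocytes were also placed along the villus by a score from 16 landmark genes, 8 of the bottom and 8 of the tip and none a member, and each library was cut into 3 zones of equal cell number. Apoa4, a tip gene that the score did not use, went from 69.1 to 313, from 137 to 597 and from 10.3 to 160 per 10000 between the lower and the upper zone. Of the other tip genes outside the score, Enpp3 and Neat1 had levels that increased over both steps in every library, while Xdh stood at 2.71, 3.78 and 3.11 in the lower, middle and upper zone of the jejunum. Genes listed for the middle villus mostly did not peak in the middle zone: Slc7a7 and Slc7a9 did so in 0 libraries, Slc2a2 in 0, and Slc5a1 in 2, with 11.6, 6.47 and 2.19 from the lower to the upper zone of the jejunum. Early enterocytes made up 34.7%, 24.5% and 29.0% of the lower zones and at most 0.586% of any other. The bottom landmarks Reg3b, Reg3g, Gpx2, Ccl25 and Dmbt1 were also among the markers that named early enterocytes. Comparisons with the lower zone are thus not independent of those with early enterocytes. The tip landmark Slc28a1 went from 0.0750 in the lower to 0.231 in the upper zone of the duodenum, from 0.524 to 0.394 in the jejunum and from 0.127 to 0.125 in the ileum. The zones are ranges of a score, and 15.7% of the cells lay near a cut. Median UMIs per cell went from 16505.5 in the lower to 9147 in the upper zone of the duodenum, from 16236.5 to 11540.5 in the jejunum and from 8506.5 to 7340.5 in the ileum; the part of depth in the results was not tested.

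Acot12 was higher in the upper than in the lower zone, and the other 5 members were lower. Of the 11392 genes tested 28.7% were called higher and 33.3% lower. Without TMM that split went from 3268 higher and 3795 lower to 1813 and 5429, and each member kept its direction and its call. All 6 were also called in the same direction when early enterocytes were left out, and with each library left out in turn. Without the library block 5 kept their call and Acot12 did not (edgeR, adjusted p = 0.0548).

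**Figure D2:**
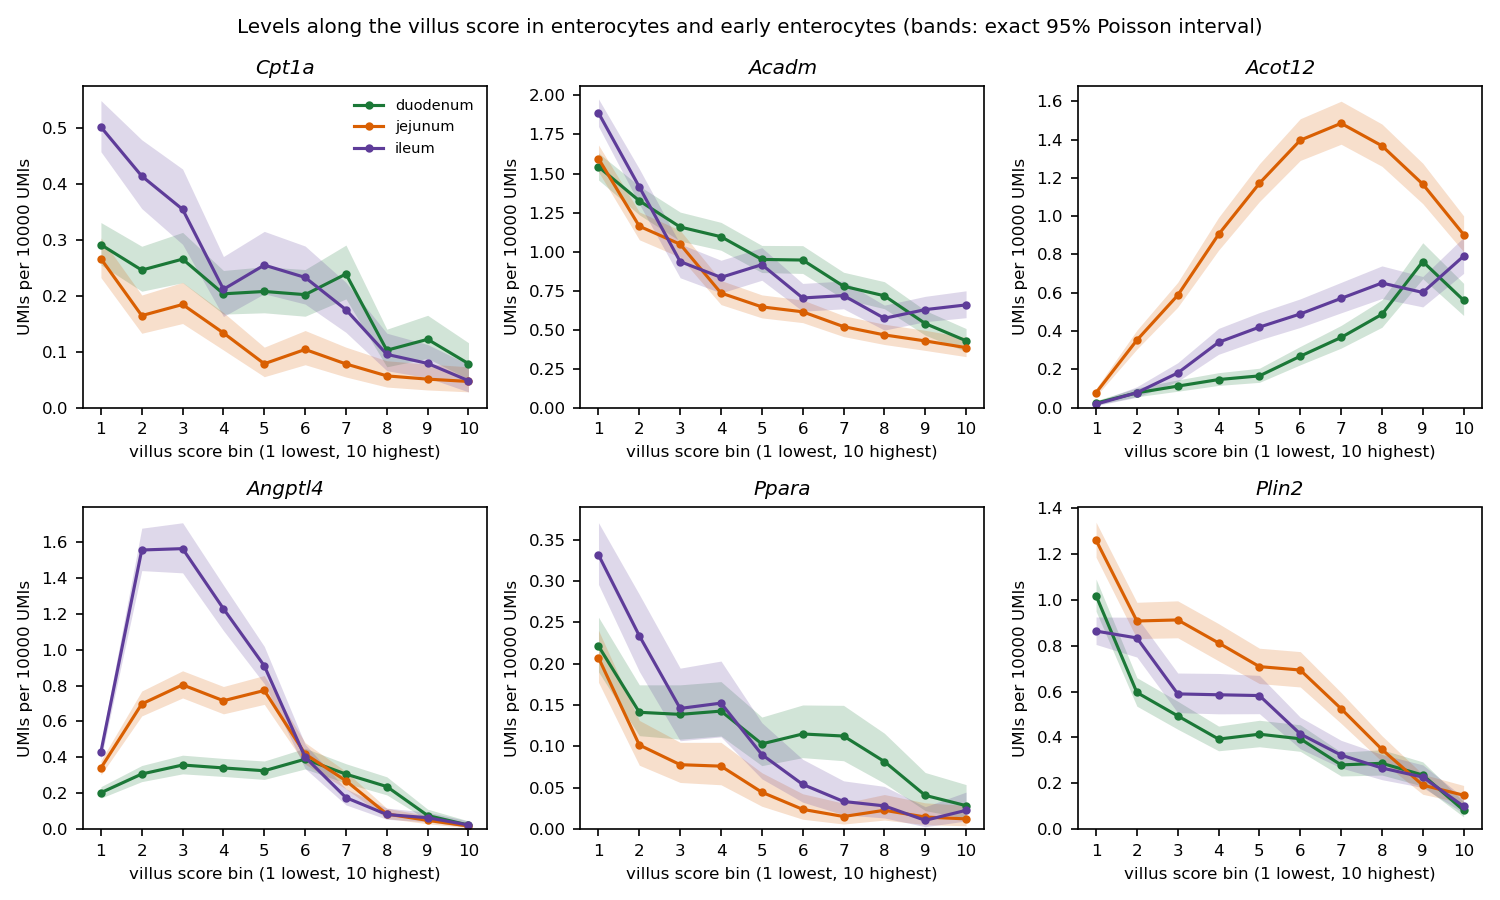
Level of each member in UMIs per 10000 UMIs (vertical axes) over 10 bins of equal cell number along the villus score, from 1 (lowest) to 10 (highest), with 1 line per library and exact 95% Poisson intervals as bands. Acot12 climbs from bin 1, Angptl4 peaks between bins 3 and 6 and ends between 0.0172 and 0.0227 in bin 10, and the other 4 members are highest in bin 1.

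Ppara also fell up the villus. Its level was 0.173, 0.137 and 0.265 in the lower zones, 0.115, 0.0360 and 0.0808 in the middle zones, and 0.0572, 0.0169 and 0.0190 in the upper zones, from 67, 24 and 23 UMIs. The lower zones did not overlap with the others. The level fell 3.02-fold, 8.11-fold and 13.9-fold from the lower to the upper zone. In the fit the log2 change was -2.31 ± 0.33 for this span (edgeR, adjusted p = 0.000556), -1.26 ± 0.30 for the middle against the lower zone (adjusted p = 0.0148) and -1.05 ± 0.34 for the upper against the middle zone (adjusted p = 0.0669).

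Cpt1a fell over the same span. Its level was 0.265, 0.208 and 0.442 in the lower zones, 0.212, 0.0958 and 0.221 in the middle zones, and 0.115, 0.0557 and 0.0828 in the upper zones. Upper and lower zones did not overlap, while the middle zones overlapped with both. Each upper zone lay below the Cpt1a level of the T cells in its library. The log2 change from edgeR was -1.40 ± 0.19 for the upper against the lower zone (edgeR, adjusted p = 0.000407), -0.66 ± 0.18 for the middle against the lower zone (adjusted p = 0.0247) and -0.74 ± 0.19 for the upper against the middle zone (adjusted p = 0.0386).

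Acadm fell as well. Its level was 1.34, 1.26 and 1.55 in the lower zones, 0.944, 0.639 and 0.793 in the middle zones, and 0.603, 0.436 and 0.619 in the upper zones. No zone overlapped with another. By the fit the log2 change was -0.89 ± 0.13 for the upper against the lower zone (edgeR, adjusted p = 0.000519) and -0.66 ± 0.13 for the middle against the lower zone (adjusted p = 0.00647). The upper against the middle zone gave -0.24 ± 0.13 (edgeR, adjusted p = 0.205), which was called without TMM at -0.51 (adjusted p = 0.0418).

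Acot12 ran the other way. Its level was 0.0698, 0.351 and 0.0775 in the lower zones, 0.231, 1.26 and 0.460 in the middle zones, and 0.573, 1.17 and 0.671 in the upper zones. In the lower zones the duodenum lay below its T cells (0.159) and the ileum near its own (0.0637). Duodenum and ileum kept rising to the upper zone, while the jejunum stood at 1.26 in its middle and 1.17 in its upper zone. Over 10 bins the duodenum peaked in bin 9 (0.763), the jejunum in bin 7 (1.48) and the ileum in bin 10 (0.791), and the jejunum was back at 0.904 in bin 10. In the fit the log2 change was 3.07 ± 0.30 for the upper against the lower zone (edgeR, adjusted p = 0.000103), 2.19 ± 0.29 for the middle against the lower zone (adjusted p = 0.00157) and 0.88 ± 0.28 for the upper against the middle zone (adjusted p = 0.0631).

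Angptl4 was lowest near the tip. Its level was 0.276, 0.578 and 0.944 in the lower zones, 0.350, 0.564 and 0.670 in the middle zones, and 0.144, 0.0812 and 0.0563 in the upper zones. All upper zones lay below all others, and that of the ileum lay below its T cells at 0.197. The log2 change from edgeR was -2.07 ± 0.45 for the upper against the lower zone (edgeR, adjusted p = 0.00439), -2.12 ± 0.45 for the upper against the middle zone (adjusted p = 0.0257) and 0.05 ± 0.41 for the middle against the lower zone (adjusted p = 0.936). In finer bins Angptl4 peaked at 0.390 in bin 6 of the duodenum, 0.804 in bin 3 of the jejunum and 1.56 in bin 3 of the ileum. Bin 1 stood below these peaks, at 0.203, 0.340 and 0.430, and bin 10 held 7, 7 and 8 UMIs.

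Plin2 declined in both steps. Its level was 0.708, 1.04 and 0.797 in the lower zones, 0.386, 0.704 and 0.474 in the middle zones, and 0.217, 0.255 and 0.206 in the upper zones. No zone overlapped with another, although the lower zone of the duodenum and the middle zone of the jejunum were close. The upper zones all lay below the Plin2 level of the T cells in the same library. By the fit the log2 change was -1.45 ± 0.14 for the upper against the lower zone (edgeR, adjusted p = 0.000117), -0.56 ± 0.14 for the middle against the lower zone (adjusted p = 0.0179) and -0.89 ± 0.14 for the upper against the middle zone (adjusted p = 0.0161).

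**Figure D3:**
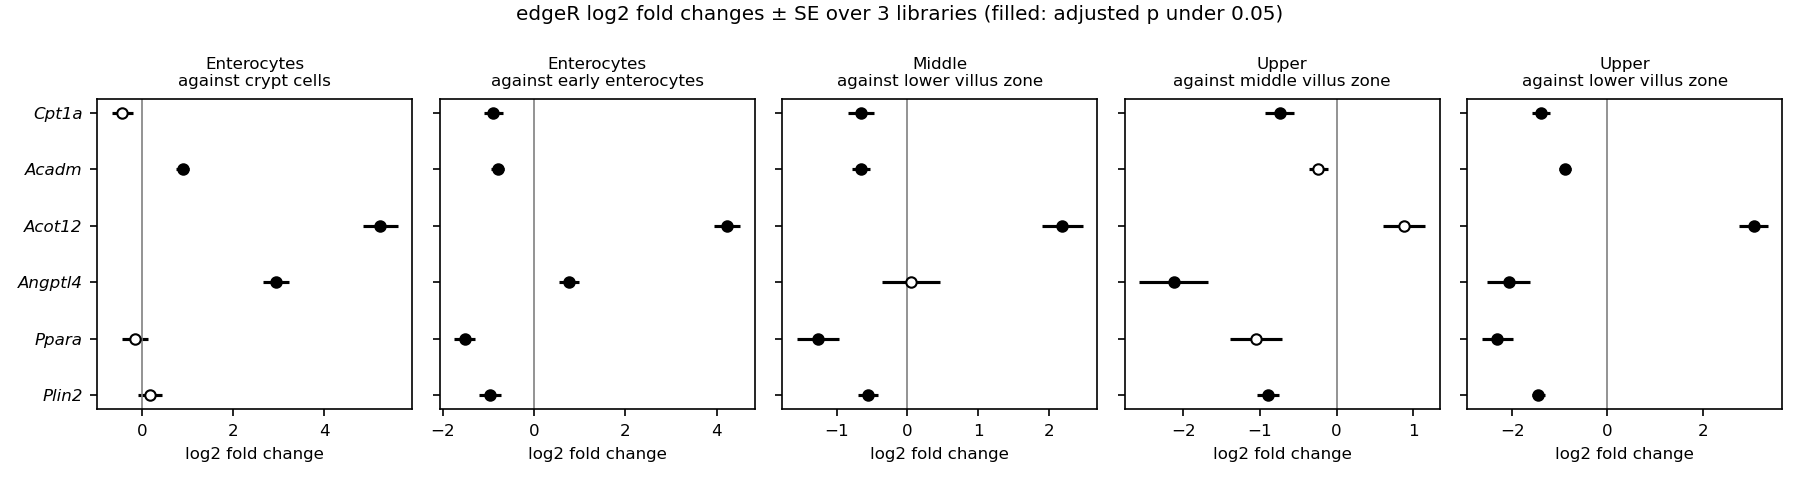
Fitted log2 fold change of each member (horizontal axes) in the 5 tested comparisons, with standard errors over 3 libraries as bars and filled points for an adjusted p under 0.05 in edgeR. All 6 points are filled for the upper against the lower zone, with Acot12 at 3.07 and the others between -2.31 and -0.89.

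Calls between neighbouring zones were fewer without the jejunum or without the ileum, over all genes as well as among the members. For the middle against the lower zone 1 member was called higher and 4 lower, beside 15.9% and 18.3% of all genes, and for the upper against the middle zone 0 and 3, beside 8.17% and 6.63%. Without the jejunum 0 members were called lower in either step, beside 392 and 0 of 11513 genes. Without the ileum 1 member was called lower in the former and 0 in the latter, beside 1067 and 0 of 11231 genes. With early enterocytes left out 0 members were called lower in the former step, beside 608 of 11006 genes. Without TMM the splits over all genes went from 1814 higher and 2086 lower to 971 and 2384 for the former, and from 931 and 755 to 485 and 1629 for the latter.

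The related genes were read in the same fits, as 93 genes in 8 lists that hold none of the members, of which 80 were tested. For enterocytes against crypt cells 50 were called higher and 12 lower, with a median log2 fold change of 1.29 against 0.03 over all genes, of which 36.6% were called higher and 35.6% lower. Without TMM these became 38 and 19 with a median of 0.54, beside 21.6% and 50.1% of all genes. Mitochondrial beta-oxidation then had 4 higher and 6 lower, receptors and partners 4 and 4, ketone body genes 1 and 3, and peroxisomal oxidation 9 and 0. With TMM, peroxisomal oxidation had 10 of 11 genes higher and 0 lower, with the thiolase Acaa1b at 4.07 and Scp2, a thiolase and sterol carrier, at 3.22. Mitochondrial beta-oxidation had 8 of 16 higher and 4 lower, with the dehydrogenases Acad11 at 3.26, Hadh at 1.52 and Acadl at 1.24 against Acad9 at -1.89, Eci1 at -0.97 and Echs1 at -0.81. Activation and carnitine transfer had 7 of 10 higher and 1 lower. The carnitine transporter Slc22a5 stood at 3.65, the acyl-CoA synthetase Acsl5 at 3.34 and carnitine acetyltransferase Crat at 2.99, against -1.48 for Acaca, which makes the CPT1 inhibitor malonyl-CoA.

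Known PPAR targets had 7 of 10 genes higher in enterocytes than in crypt cells and 2 lower. The transcription factor Creb3l3 (5.20), the fatty acid transporter Cd36 (5.17) and the droplet protein Cidec (5.12) led them, with 12 UMIs of Cd36 in all crypt cells. The lower ones were Txnip (-0.58) and the lipase gene Mgll (-2.04), with 7, 3 and 3 Mgll UMIs in crypt cells and 8, 16 and 29 in enterocytes. Receptors and partners had 5 of 10 higher and 1 lower, with Rxra, which pairs with PPARα, at 2.48, the coactivator Ppargc1a at 2.15 and the corepressor Ncor1 at 1.54 against Ppargc1b at -0.95. Thioesterases had 5 of 8 higher and 2 lower, with Acot4 at 3.49, Acot9 at 2.10 and Them4 at 1.62 against Acot1 at -1.74 and Acot7 at -0.52. Lipid droplet and lipolysis genes had 6 of 8 higher and 1 lower, with Cideb at 4.00 and hormone-sensitive lipase Lipe at 3.77 against Hilpda at -3.24. Hilpda rests on 11, 15 and 23 UMIs in crypt cells and 9, 72 and 15 in enterocytes. G0s2, a lipase inhibitor called higher, held 1, 3 and 0 UMIs in crypt cells and 119, 789 and 0 in enterocytes.

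Ketone body genes had 2 of 7 higher and 1 lower, with a median of -0.14. Bdh1, which makes beta-hydroxybutyrate, was the lower one, at -1.13. Bdh2, a cytosolic dehydrogenase, held 0, 3 and 0 UMIs in crypt cells and 175, 1601 and 126 in enterocytes, and its fitted fold depends on the prior count.

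**Figure D4:**
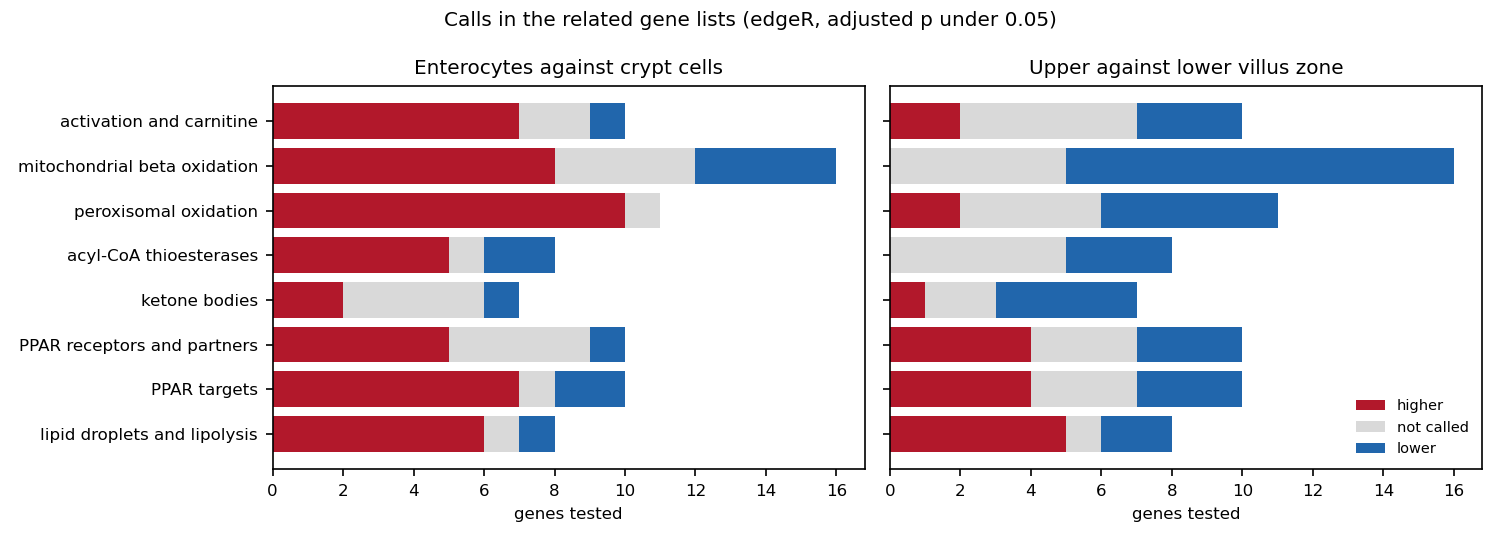
Number of genes tested in each related list (horizontal axes), split into called higher (red), not called (grey) and called lower (blue) in edgeR, for enterocytes against crypt cells (left) and the upper against the lower zone (right). Peroxisomal oxidation has 10 of 11 genes higher on the left, and mitochondrial beta-oxidation 11 of 16 lower on the right.

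Up the villus, 18 of the 80 related genes were higher and 34 lower in the upper than in the lower zone, with a median log2 fold change of -0.32 against -0.09 over all genes, of which 28.7% were called higher and 33.3% lower. Without TMM these became 12 and 48, beside 15.9% and 47.7% of all genes. Mitochondrial beta-oxidation had 0 of 16 higher and 11 lower, led by the isomerases Eci1 (-2.79) and Eci2 (-2.07) and by Acad9 (-2.10). Peroxisomal oxidation had 2 of 11 higher, among them Scp2 (0.57), and 5 lower, led by Hsd17b4 (-1.34), Ech1 (-1.02) and Abcd3 (-0.91). Thioesterases had 0 of 8 higher and 3 lower, Acot13 (-1.89), Acot1 (-1.57) and Acot2 (-1.03), opposite in sign to Acot12. Ketone body genes had 4 of 7 lower, among them Bdh1 (-1.74), Oxct1, which uses ketone bodies (-1.24), and the monocarboxylate transporter Slc16a1 (-0.75). The 1 higher was Bdh2, with 49, 38 and 1 UMIs in the lower and 131, 1252 and 110 in the upper zones.

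Some related genes rose toward the tip with Acot12. Activation and carnitine genes had 2 of 10 higher, the synthetase Acsl3 (4.14) and Slc22a5 (1.32), and 3 lower, Acaca (-1.99), Acsl1 (-0.67) and Cpt2 (-0.52). PPAR targets had 4 of 10 higher, led by Cidec (3.37), Creb3l3 (2.05) and Cd36 (1.02), and 3 lower, Mgll (-2.12), Cyp4a10 (-1.98) and the fatty acid-binding protein Fabp1 (-1.75). Mgll rests on 1, 2 and 2 UMIs in the upper zones and Cyp4a10 on 13, 10 and 1. Receptors and partners had 4 of 10 higher, among them Pparg (1.48) and Ep300 (0.82), and 3 lower, Ppargc1b (-2.14), Ppargc1a (-2.05) and Med1 (-0.52). Lipid droplet and lipolysis genes had 5 of 8 higher, led by the droplet coat Plin3 (1.53), Abhd5, a lipase cofactor (1.25), and Cideb (1.01), and 2 lower, Angptl8 (-3.85) and G0s2 (-3.44). Plin3 and Plin2 thus changed in opposite directions. In the upper zones Angptl8 held 8, 6 and 0 UMIs and G0s2 16, 12 and 0.

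Enterocytes against early enterocytes had 24 of 80 higher and 13 lower, beside 25.8% and 24.1% of all genes. The middle against the lower zone had 12 and 11, beside 15.9% and 18.3%, and the upper against the middle zone 5 and 11, beside 8.17% and 6.63%. Mitochondrial beta-oxidation had 1 higher and 7 lower, 0 and 5, and 0 and 2 in these.

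Segments were compared by level in enterocytes, with no test, since each has 1 library. Of the 6 members 3 differed by at least 2-fold between the highest and the lowest segment, as did 37.3% of 10488 genes with at least 100 UMIs. Acot12 was 3.40-fold higher in the jejunum than in the duodenum (95% counting interval 3.19 to 3.63). It was 6.32-fold higher with each library's T cell level subtracted, a ratio without an interval. The duodenal T cell level comes from only 35 cells, with 188825 UMIs of all genes. Angptl4 was 2.44-fold higher in the ileum than in the duodenum (2.27 to 2.63). Ppara was 2.27-fold higher in the duodenum than in the jejunum (1.91 to 2.71). Cpt1a was 1.98-fold higher in the ileum than in the jejunum (1.75 to 2.25), Plin2 1.63-fold higher in the jejunum than in the duodenum (1.53 to 1.74), and Acadm 1.33-fold higher in the duodenum than in the jejunum (1.27 to 1.40). These intervals hold no spread between animals. The segments also fill the enterocyte clusters unequally. A cluster led by Slc4a7 and S100g held 1101, 347 and 280 cells and one led by Cpn1 and Tmigd1 13, 47 and 616, with Acot12 at 0.120, 0.488 and 0.0887 in the former. Within the cluster led by Slc28a2 Acot12 stood at 0.729, 1.26 and 0.842. The part of cluster makeup in the segment ratios was not tested.

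Segment order changed along the villus for several members. Angptl4 was 3.42-fold higher in the ileum than in the duodenum in the lower zone and 1.92-fold in the middle zone, and 2.56-fold higher in the duodenum than in the ileum in the upper zone. Acot12 of the jejunum exceeded that of the duodenum 5.03-fold, 5.43-fold and 2.04-fold in the lower, middle and upper zone. Ppara was 1.93-fold higher in the ileum than in the jejunum in the lower zone, and highest in the duodenum in the middle and upper zones, 3.21-fold and 3.38-fold above the jejunum. Cpt1a was highest in the ileum in the lower and middle zones, 2.12-fold and 2.31-fold above the jejunum, and in the duodenum in the upper zone, at 2.07-fold. Acadm was highest in the ileum, the duodenum and the ileum by zone, with ratios of 1.23 to 1.48, and Plin2 in the jejunum in each zone. In crypt cells the intervals of 4 members included 1, and those of Acot12 (1.26 to 478, on 1 and 6 UMIs) and Plin2 (1.18 to 2.02) did not.

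The mitochondrial share, which differs between the segments, enters the per-10000 scale. Without mitochondrial UMIs the ratio of Angptl4 was 2.05 and that of Cpt1a 1.93, with the duodenum highest for Cpt1a. In cells with at most 20% mitochondrial UMIs, Acot12 and Angptl4 had ratios of 3.36 and 2.74, Cpt1a and Ppara 1.42 and 1.52, and Plin2 2.13 between jejunum and ileum.

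The members did not share 1 pattern over 15 sums, those of crypt cells, early enterocytes and 3 zones of enterocytes in each library. The Pearson correlation of log2(UMIs per 10000 + 0.1) was 0.90 for Cpt1a with Ppara and 0.88 for Acadm with Ppara. It was -0.93 for Acot12 with Cpt1a and -0.87 with Ppara, and 0.06 for Acot12 with Angptl4. The sums of a library hold different cells but come from the same library, and these values are descriptions.

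Among 2668 genes with a mean of at least 0.5 per 10000, Tlcd2 (0.98), Gramd1b (0.96) and Dusp6 (0.96) were most like Acot12, and Ano6 (0.93), Epb41l3 (0.91) and Fam213b (0.89) most like Angptl4. Hadhb (0.93), Slc25a11 (0.92) and Slc39a5 (0.92) were nearest to Plin2, and Dgkz (0.97), Atp2a2 (0.96) and Stt3b (0.96) to Cpt1a. Derl1 (0.95), Chchd7 (0.94) and Bad (0.94) were nearest to Acadm, and Iah1 (0.97), Clptm1l (0.96) and Gstp1 (0.96) to Ppara. Ppara, Cpt1a, Angptl4 and Acot12 themselves lay below the floor of 0.5, with means of 0.126, 0.244, 0.361 and 0.375. The 0.1 added before the logarithm narrows ratios at such low levels, here and in the correlations between members.

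Members were among the leading genes of 2 enterocyte clusters although none was used to cluster. Acot12 had the largest fold in a cluster of 1927 cells, at 0.546, 1.42 and 0.768 per 10000, followed by Enpp3 and Tlcd2. Angptl4 was among the 10 leading genes of a cluster of 2206 cells, after Slc5a12, Pck1 and Ace, at 0.50, 0.938 and 1.91. An unnamed cluster of 1302 cells led by Gm26917 and Fgf15, not counted as enterocytes, held Angptl4 at 0.699, 0.545 and 1.34. In each library this lay above the level of enterocytes (0.279, 0.442 and 0.680).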

How the data were processed

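The authors deposited 1 matrix of UMI counts per library, made with 10x 3′ v3 chemistry and Cell Ranger 3.0.2 on mm10. Cells were kept with a total of 800 to 50000 UMIs, with 200 to 6000 detected genes, and with a mitochondrial share of no more than 40%. Cells were integrated and clustered in Seurat 5.3.0 (R 4.3.3; 2000 variable genes without the members and related lists, 30 components, resolution 0.8), which gave 22 clusters; 2 mixed ones were split once more. A name needed 3 detected markers and a lead of 0.05 in relative marker level, and sub-clusters also 2 markers among their 10 leading genes. No doublet caller was run; leaving out cells over 30000 UMIs was an alternative. Counts were summed per library and class or zone and tested with edgeR 4.0.16 (filterByExpr, TMM, library block); landmark genes were left out of the zone fit. DESeq2 1.42.0 and other settings were alternatives. The 3′ counts do not scale with gene length. Counts were also simulated with a few genes changed, as many up as down. For enterocytes against crypt cells, 31.7% of 186 genes changed by a log2 fold of 1 and 83.6% of 189 changed by 2 were recovered. For the upper against the lower zone these were 65.5% of 197 and 95.9% of 195. With so few genes changed, the simulation could not probe the shift over all genes on which the TMM factors act. All members were named, and per related list and comparison up to 3 called genes with the largest change in each direction, except some that are not reported here; folds that rest on few UMIs are given with those UMIs or as UMIs alone. Members, lists and tests were chosen with earlier results of these data known.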

Additional observations from a re-analysis of the deposited data

Results flagged for a closer look

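Angptl4 moved in opposite directions from the lower to the middle villus zone in 2 segments. The log2 ratio of the levels was 0.34 in the duodenum and -0.49 in the ileum, a difference of 0.836 on the log2 scale, and the counting intervals of the ratios, 1.13 to 1.42 and 0.650 to 0.774, lay on opposite sides of 1. The difference between the segments was not tested, since each has 1 library. Early enterocytes, whose Angptl4 level lay below that of enterocytes, made up 34.7% and 29.0% of these lower zones. With them left out the fitted change over all libraries was -0.65 and not called. The ratios by segment were not computed without them, so their part in the opposite directions was not tested.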

How the results depend on the processing

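Of 438 values of members under other settings of the tests, 368 kept their direction and their side of the threshold. Of the rest 41 lost a call, 15 gained one and 14 changed sign. Of 40 ratios of the highest to the lowest segment 29 stayed within the main counting interval, but the segments compared could change. For Ppara the main ratio was 2.27 for duodenum over jejunum, and with early enterocytes included it was 1.96 for ileum over jejunum. The highest or lowest segment also changed for Cpt1a, Acadm and Plin2 without mitochondrial UMIs, and for Acadm in further settings. Where a value changed with a setting, the cause was not tested. For enterocytes against crypt cells 3 members were called lower without TMM, and Plin2 turned to -0.59. Marker sums in place of clusters gave Cpt1a 0.022 and Ppara 0.31, and Ppara was 0.0107 without cycling crypt cells, an alternative added after seeing the data. With a library left out, 0 to 1 members were called lower, Plin2 ranged from -0.14 to 0.63 and was -0.01 without the ileum, and Ppara ranged from -0.53 to 0.038. For enterocytes against early enterocytes 1 member was called higher with at most 20% mitochondrial UMIs, with marker sums, without TMM or without the library block, and 1 to 2 with a library left out, where 3193 to 5554 genes were called. For the upper against the lower zone 0 members were called higher without the library block, where 3416 genes were called (Acot12 adjusted p = 0.0548 in edgeR), and 4643 to 6877 genes were called with a library left out. For the middle against the lower zone 2 members were called lower without cells over 30000 UMIs or with at most 20% mitochondrial UMIs, and 0 without early enterocytes (1270 genes) or without the library block (182 genes, 0 members higher). With a library left out 0 to 3 were called lower and 464 to 4225 genes called. Angptl4, at 0.05 there, turned to -0.20 without cells over 30000 UMIs, -0.16 without TMM, -0.0713 without Reg3b and Reg3g, -0.65 without early enterocytes and -0.0347 without the Lars2 cluster, and ranged from -0.0581 to 0.28 with a library left out. For the upper against the middle zone 2889 genes were called with 5 zones and 2561 with the Fgf15 cluster; both settings on clusters were also added after seeing the data. There 1 member was called higher with DESeq2, with at most 20% mitochondrial UMIs, with no filter on low genes or without early enterocytes. In edgeR 0 genes and 0 members were called lower or higher without the library block, with 1129 genes at an unadjusted p under 0.05, and with a library left out 0 to 3 members were called lower and 0 to 1690 genes called (0 without the ileum and without the jejunum, with 3113 and 2131 at an unadjusted p under 0.05). With the T cell level subtracted, the ratio of Acot12 between jejunum and duodenum was 6.32. Acadm was 1.27-fold higher in the jejunum than in the duodenum. Cpt1a and Plin2 gave no ratio, both being at 0 in the duodenum and Cpt1a also in the jejunum. These subtracted values have no counting interval, and the duodenal T cell level comes from only 35 cells. Sums of at least 3 cells gave the same sums as the main setting. Their values are counted among the 368 and could not have differed. The fits pair the groups compared within each library through the library block.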
